A study of Rattus norvegicus with 12 samples.

Results

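Chemokines are small secreted proteins that guide leukocytes, and 10 of their genes were followed here in cultured heart muscle cells: Ccl2, Ccl5, Ccl7, Ccl20, Cxcl1, Cxcl9, Cxcl10, Cxcl11, Cxcl12 and Cx3cl1. The members were the rows of the expression tables with these gene symbols, 10 of 18483 genes, and each symbol matched 1 row. The cells were neonatal rat ventricular myocytes (NRVMs) from Sprague-Dawley rats, profiled by RNA-seq in 4 groups of 3 replicates. The groups were siNeg (control siRNA, no further treatment), siNeg PE (control siRNA and phenylephrine), siSlc39a2 (siRNA against the zinc importer gene Slc39a2) and siSlc39a2 PE (that siRNA and phenylephrine). All 4 groups were transfected, and no untransfected cells were analysed here. Phenylephrine (PE), an agonist of alpha-1 adrenergic receptors, makes cultured myocytes grow, and the labels give 36 h of it after transfection. The knockdown used 1 siRNA sequence, so an effect of losing Slc39a2 and any other effect of that siRNA cannot be told apart.

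Chemokines bind receptors coupled to G proteins and form gradients on the heparan sulfate of cell surfaces and matrix. Ccl5, Cxcl9, Cxcl10 and Cxcl11 are grouped here as interferon-type, because interferons, through STAT and IRF factors, are their best known inducers. Cxcl9, Cxcl10 and Cxcl11 are the ligands of CXCR3 on activated T cells and natural killer cells, and Ccl5 draws T cells and monocytes. Ccl2, Ccl7, Ccl20, Cxcl1 and Cx3cl1 are grouped as NFκB-type, since tumour necrosis factor, interleukin-1 and microbial products induce them through NFκB. Ccl2 and Ccl7 recruit monocytes through CCR2, Cxcl1 recruits neutrophils through CXCR2, Ccl20 binds CCR6, and Cx3cl1 (fractalkine) is made as a membrane-bound protein that CX3CR1 binds. Cxcl12 is a homeostatic chemokine, made by stromal cells without inflammation, which signals through CXCR4 and is scavenged by ACKR3. The split is one of convenience, since several of these genes respond to both kinds of signal.

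Promoter sequence from RefSeq (build GRCr8) was matched for 8 of the 10 genes. Ccl2 and Ccl5 had no entry. The 250 bases before the transcription start are printed for 5 genes to show a contrast that the group names hide: Cxcl10 and Cxcl11 stand for the interferon-type genes, Cxcl1 and Ccl7 for the NFκB-type genes and Cxcl12 for the homeostatic gene. Capitals mark the letters of a κB motif (GGGNNNTTCC), a core of the interferon-stimulated response element (ISRE, GAAANNGAAA) or a gamma-activated site (GAS, TTCNNNGAA), searched on both strands.
Cxcl10, chr14:15988816-15989065, plus strand: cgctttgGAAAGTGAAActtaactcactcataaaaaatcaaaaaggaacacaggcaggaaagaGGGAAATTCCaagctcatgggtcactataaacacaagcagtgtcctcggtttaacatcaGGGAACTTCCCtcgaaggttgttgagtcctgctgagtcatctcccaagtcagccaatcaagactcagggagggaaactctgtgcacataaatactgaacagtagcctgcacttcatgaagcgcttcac
Cxcl11, chr14:15973478-15973727, plus strand: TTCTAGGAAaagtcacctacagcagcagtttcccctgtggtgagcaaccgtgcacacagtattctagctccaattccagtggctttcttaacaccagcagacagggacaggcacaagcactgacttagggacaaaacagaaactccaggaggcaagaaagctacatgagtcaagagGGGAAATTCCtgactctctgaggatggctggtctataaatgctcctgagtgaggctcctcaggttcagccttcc
Cxcl1, chr14:17479322-17479571, minus strand: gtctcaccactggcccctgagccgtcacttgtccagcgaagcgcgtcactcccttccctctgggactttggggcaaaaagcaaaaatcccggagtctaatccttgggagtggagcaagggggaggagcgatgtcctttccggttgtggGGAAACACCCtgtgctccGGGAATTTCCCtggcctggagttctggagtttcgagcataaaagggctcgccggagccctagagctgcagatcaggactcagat
Ccl7, chr10:67513845-67514094, plus strand: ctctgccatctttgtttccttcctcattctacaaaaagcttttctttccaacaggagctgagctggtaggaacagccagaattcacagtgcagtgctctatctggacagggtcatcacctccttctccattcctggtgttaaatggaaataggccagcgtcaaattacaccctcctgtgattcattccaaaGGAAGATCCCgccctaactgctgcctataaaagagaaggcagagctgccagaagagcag
Cxcl12, chr4:152060531-152060780, plus strand: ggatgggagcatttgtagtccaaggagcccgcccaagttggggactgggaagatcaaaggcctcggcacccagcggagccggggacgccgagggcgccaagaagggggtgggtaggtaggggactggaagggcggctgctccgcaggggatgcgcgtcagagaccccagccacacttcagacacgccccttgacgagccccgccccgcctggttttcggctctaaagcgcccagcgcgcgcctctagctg

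In these windows and the 50 bases after the start, the κB letters were found in 5 of 8 chemokine promoters, Cxcl10, Cxcl11, Ccl7, Ccl20 and Cxcl1, while 5.37% of 33469 rat promoters of the same length held them. Both inducer groups were among these 5. The run GGGAAATTCC lay at -187 to -178 of Cxcl10 and at -74 to -65 of Cxcl11, and Cxcl1 held the same 10 letters on the other strand at -83 to -74. That match in Cxcl1 overlapped a match on the plus strand of the gene, shifted by 1 base, so that together they covered -84 to -74, and Cxcl10 held a like pair at -128 to -118. A further match in Cxcl1 lay at -102 to -93. The ISRE core letters were found only in Cxcl10 among the 8, as GAAAGTGAAA at -243 to -234, and 3.92% of all promoters held them. The GAS letters were found in Cxcl11 before the start and in Cxcl9 and Ccl7 after it, against 8.87% of all promoters. None of the 3 motifs was found in the windows of Cx3cl1 and Cxcl12. A match describes letters and says nothing of whether a factor bound there.

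**Figure D1:**
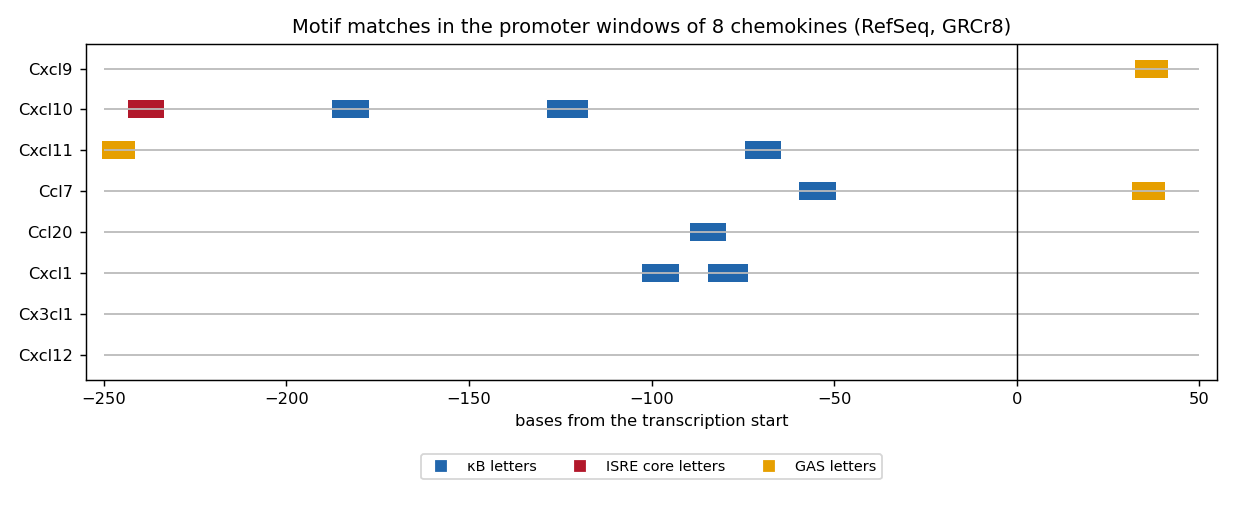
Positions of motif matches (coloured boxes) in bases from the transcription start, for the 8 chemokine genes with a promoter entry; grey lines are the windows searched, from 250 bases before to 50 after the start. The κB letters stand in 5 of the 8 windows, and the windows of Cx3cl1 and Cxcl12 hold none of the 3 motifs.

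Each sample held between 24065539 and 28603854 expected counts, so that 3 counts, the limit set by a count of 0, came to 0.102 to 0.118 CPM, the counts of a gene scaled to the total of its sample times its TMM normalization factor. This limit covers counting error only. Slc39a2 itself was read at 50, 50 and 59 counts in siNeg and at 95, 198 and 182 in siNeg PE. After the siRNA against it, the counts were 21, 11 and 2 without PE and 31, 25 and 38 with PE. It was lower after the siRNA by 5.11-fold without PE and by 5.04-fold with PE (edgeR adjusted p = 0.00098 and 0.000224). With 1 library left out, the log2 difference without PE, -2.35, ran from -3.12 (without siSlc39a2 replicate 1) to -1.855. The 8 cardiomyocyte markers had summed levels of 44000 to 45300 CPM in siSlc39a2 and of 53300 to 65500 CPM in the other 3 groups. The myocytes had been enriched on Percoll, yet the 8 fibroblast markers were also high and differed between groups, with mean sums in control cells of 16600 CPM without PE and 10600 with PE, and in knockdown cells of 5440 and 4050. Macrophage markers (9 genes) summed to 86.3 to 123 CPM in siNeg and to 31.9 to 56.3 CPM in the other 3 groups. Neutrophil markers reached at most 0.276 CPM and lymphocyte markers at most 4.47 CPM. In bulk samples such as these, fewer cells of a type and less RNA per cell cannot be told apart.

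The main question was how the chemokine genes differed after Slc39a2 knockdown in cells without PE. Of 9 members that could be tested, 8 rose past the threshold, an absolute log2 fold change above 1 with an adjusted p below 0.05, and none fell past it. Over all 13967 genes tested, 4.57% rose and 5.21% fell past the same threshold. The tests were edgeR quasi-likelihood tests with Benjamini-Hochberg adjustment over all tested genes. The 3 tested interferon-type genes had a median log2 fold change of 5.72 and the 5 NFκB-type genes one of 3.01, against -0.016 for all genes. The ranges of the groups overlapped, since Cxcl11 (2.76) lay below Ccl2, Ccl7 and Cxcl1, so the inducer groups did not separate the genes by size of change.

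Cxcl10 rose to one of the highest levels in the set. Its level was 10.8, 13.3 and 16.4 CPM in siNeg and 767, 686 and 677 CPM in siSlc39a2. The lowest knockdown sample was far above the highest control sample, and the fold difference was 52.7 (log2 5.72 ± 0.15 SE, adjusted p = 7.55e-12). Ccl5 was close to the detection limit in controls, at 0.671, 0.379 and 0.749 CPM, and reached 47.2, 47.1 and 33.9 CPM after knockdown. This was the steepest change among the tested members, 71-fold (log2 6.15 ± 0.22 SE, adjusted p = 1.21e-10), on a control level of 10 to 19 counts. Cxcl11 stood at 7.11, 6.10 and 5.91 CPM in siNeg and at 48.2, 43.4 and 37.8 CPM in siSlc39a2. Its rise of 6.77-fold (log2 2.76 ± 0.15 SE, adjusted p = 1.06e-08) was the smallest of the 3 tested ligands of this type.

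Cxcl9, the remaining CXCR3 ligand, had no count in any of the 6 samples with siNeg, with or without PE. It had 13, 10 and 13 counts in siSlc39a2 and 3, 4 and 7 in siSlc39a2 PE. Its counts were too low for the filter, so it was not among the 9 tested genes. Against the limit of 3 counts per library, its level in siSlc39a2 was at least 3.7-fold higher than in siNeg. Per length, its level there of 0.973 ± 0.207 FPKM (fragments per kilobase of transcript, scaled to depth; SD, n = 3) was under the 710 ± 47.7 FPKM of Cxcl10 and the 46.7 ± 5.17 FPKM of Cxcl11, which bind the same receptor.

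Among the NFκB-type genes, the monocyte attractants Ccl2 and Ccl7 changed most. Ccl2 stood at 28.3, 28.3 and 25.8 CPM in siNeg and at 546, 509 and 507 CPM in siSlc39a2, a rise of 19.0-fold (log2 4.24 ± 0.07 SE, adjusted p = 1.24e-13). Its replicates lay close together in both groups. Ccl7 stood at 5.45, 5.61 and 4.85 CPM in siNeg and at 185, 167 and 152 CPM in siSlc39a2, a rise of 31.7-fold (log2 4.99 ± 0.11 SE, adjusted p = 1.6e-12). The neutrophil attractant Cxcl1 went from 2.25, 2.77 and 2.52 CPM to 22, 18.9 and 19.8 CPM, or 8.03-fold (adjusted p = 3.04e-10).

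The other NFκB-type genes changed less. Ccl20 had few reads, 15, 20 and 12 counts in control cells and 68, 84 and 70 after knockdown, a rise of 4.31-fold (log2 2.11 ± 0.25 SE, adjusted p = 1.7e-05) at a low level. Cx3cl1 stood at 58.2, 58.2 and 57.9 CPM in siNeg and reached 279, 240 and 191 CPM after knockdown. Its rise was 4.08-fold (adjusted p = 8.85e-09), the smallest of the 8, and its counts were not whole, so that part of its reads was shared with other features and its values are uncertain. By CPM, replicate 3, the library with the fewest counts, was the lowest of the siSlc39a2 samples for Cx3cl1, Ccl5, Cxcl11, Ccl7, Ccl2 and Cxcl10. By FPKM, replicate 2 was the lowest for Ccl2 and Cxcl10.

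Cxcl12 went the other way and by little. It stood at 23.0, 25.5 and 24.3 CPM in siNeg and at 18.9, 18.8 and 20.7 CPM in siSlc39a2. The groups did not overlap, but the log2 difference of -0.32 ± 0.11 SE did not pass the fold threshold (adjusted p = 0.0304). An adjusted p below 0.05 with a lower level, whatever the fold, held for 26.4% of all tested genes in this comparison.

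**Figure D2:**
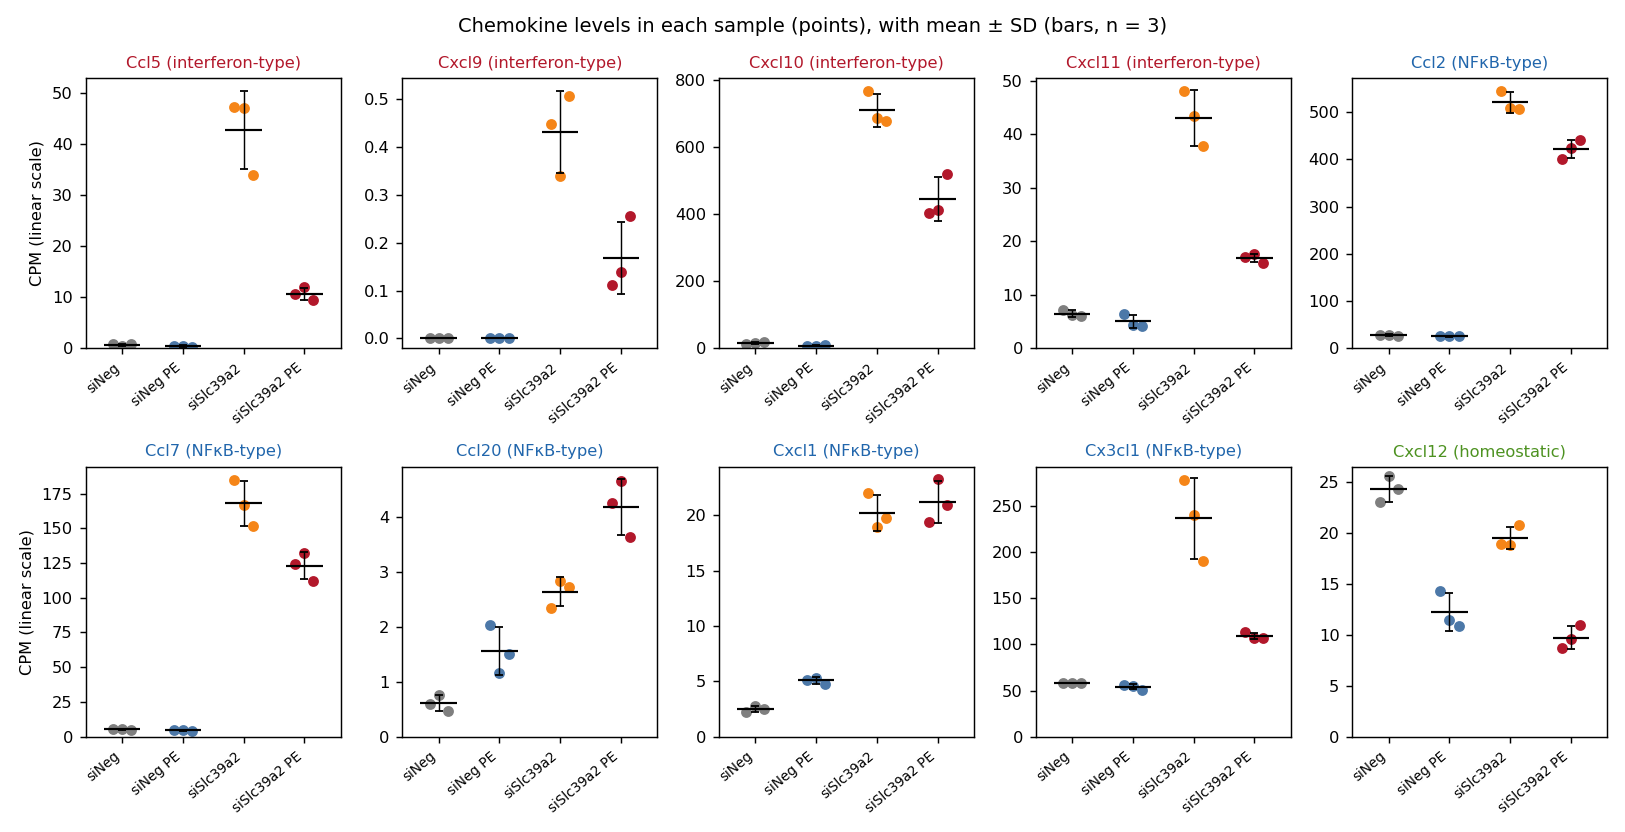
Level of each chemokine gene in each sample, in CPM on linear axes that differ between panels; points are samples, the long bar is the mean and the error bar the SD of 3 replicates. In 9 of the 10 panels the siSlc39a2 samples lie above every siNeg sample, and in the Cxcl12 panel they lie below.

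Slc39a2 knockdown was also compared in PE-treated cells. These are other samples than those compared above, but all 12 share 1 model, and so its filter, scaling and estimate of the spread. The same 8 of 9 tested members passed the threshold with higher levels and none with lower, where 6.03% of all genes rose and 5.58% fell. The median log2 fold change was 4.81 for the 3 tested interferon-type genes and 2.06 for the 5 NFκB-type genes, against 0.01 for all genes. Cxcl10 stood at 6.67, 6.51 and 7.34 CPM in siNeg PE and at 402, 411 and 521 CPM in siSlc39a2 PE, a rise of 65.0-fold (adjusted p = 8.81e-12). Ccl5 rose 28.1-fold, from 0.373 ± 0.104 to 10.6 ± 1.22 CPM (SD, n = 3, edgeR adjusted p = 5.39e-09). Ccl7 rose 27.8-fold and Ccl2 17.1-fold (adjusted p = 2.93e-12 and 1.84e-13).

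The 4 other members that passed in this comparison did so by less. Cxcl1 rose 4.18-fold to 21.2 ± 1.93 CPM, Cxcl11 rose 3.40-fold to 16.9 ± 0.784 CPM, and Ccl20 rose 2.67-fold to 4.18 ± 0.514 CPM (SD, n = 3, edgeR adjusted p = 7.67e-09, 9.55e-07 and 0.000125). Cx3cl1 stood at 56.3, 55.4 and 51.0 CPM in siNeg PE and at 113, 107 and 107 CPM in siSlc39a2 PE. Its groups did not overlap, but its log2 fold change of 1.004 ± 0.11 SE (adjusted p = 6.3e-06) lay on the fold threshold itself. It was 0.96 without siNeg PE replicate 3 and 0.98 without siSlc39a2 PE replicate 1, and the 3 limma fits (0.93 to 0.97) and RLE size factors also put it under the threshold. Cxcl12 was lower by 0.33 ± 0.12 on the log2 scale (adjusted p = 0.0303), with overlapping groups, where 28.1% of all genes were lower at that adjusted p.

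**Figure D3:**
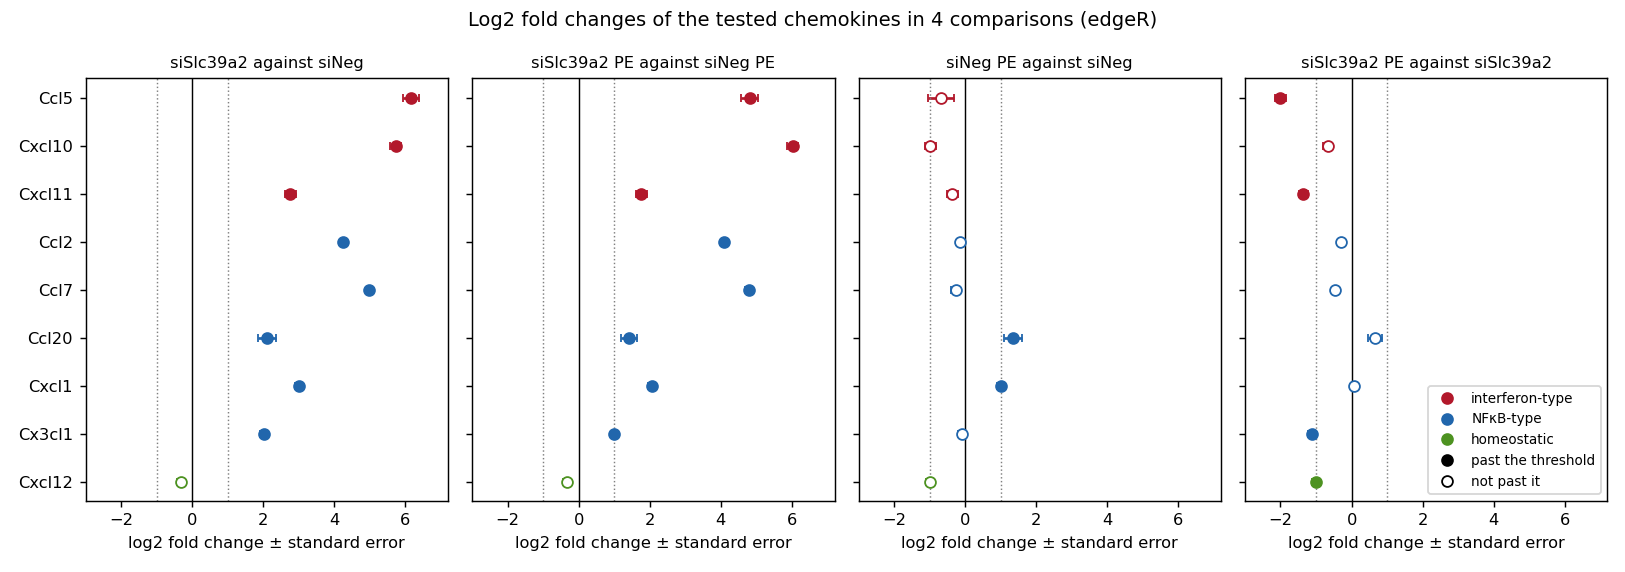
Log2 fold change ± standard error (horizontal axis) of the 9 tested chemokine genes in 4 comparisons, coloured by type; filled points passed the threshold and dotted lines mark a log2 fold change of 1 and -1. After knockdown 8 genes lie to the right of the upper line with and without PE, while with PE as the contrast most points lie near or left of 0.

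PE in control cells moved fewer of the members. Of the 9 tested members, 2 rose past the threshold, Ccl20 and Cxcl1, and none fell past it, against 3.8% of all genes that rose and 2.8% that fell. Ccl20 went from 0.592, 0.758 and 0.473 CPM to 2.03, 1.16 and 1.5 CPM, or 2.55-fold (log2 1.35 ± 0.26 SE, adjusted p = 0.00108). Cxcl1 rose 2.01-fold, from 2.25, 2.77 and 2.52 CPM to 5.16, 5.31 and 4.73 CPM (adjusted p = 4.36e-05). Both rises lifted every treated sample above every untreated one. The log2 fold change of Cxcl1, 1.01 ± 0.12 SE, again lay on the threshold, and it was 0.94, 0.998 and 0.98 without siNeg replicate 1, siNeg PE replicate 1 and siNeg PE replicate 2.

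Cxcl10 and Cxcl12 had lower levels with PE in control cells and missed the fold threshold narrowly. Cxcl10 stood at 13.5 ± 2.79 CPM in siNeg and at 6.84 ± 0.44 CPM in siNeg PE (SD, n = 3), a log2 difference of -0.98 ± 0.15 SE (edgeR adjusted p = 3e-04). Cxcl12 stood at 14.3, 11.4 and 10.8 CPM in siNeg PE, below the 23.0 to 25.5 CPM of siNeg, a log2 difference of -0.996 ± 0.11 SE (adjusted p = 2.83e-05). Both crossed the threshold without siNeg replicate 1 (-1.11 and -1.03), Cxcl10 without siNeg PE replicate 3 (-1.03) and Cxcl12 without siNeg PE replicate 1 (-1.13). Such an adjusted p with a lower level was found for 25.7% of all genes. The differences of Ccl5, Cxcl11, Ccl2, Ccl7 and Cx3cl1 lay between -0.67 and -0.10 on the log2 scale, with adjusted p from 0.0641 to 0.453.

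PE after knockdown was compared within the siSlc39a2 cells. Here 4 of the 9 tested members fell past the threshold, Ccl5, Cxcl11, Cx3cl1 and Cxcl12, and none rose past it, where 4.17% of all genes fell and 6.34% rose. Ccl5 fell from 33.9 to 47.2 CPM to 10.6, 11.9 and 9.42 CPM, or 4.01-fold (log2 -2.01 ± 0.16 SE, adjusted p = 5.76e-07). Cxcl11 fell from 37.8 to 48.2 CPM to 17.0, 17.6 and 16.0 CPM, or 2.56-fold (adjusted p = 5.99e-06). Even so, every siSlc39a2 PE sample stayed above every sample with siNeg for both genes.

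Cx3cl1 fell 2.18-fold (adjusted p = 2.88e-06), and Cxcl12, at 8.65, 9.59 and 10.9 CPM, fell 2.0-fold from siSlc39a2 (log2 -1.003 ± 0.12 SE, adjusted p = 1.69e-05). Both calls hung on single libraries, since Cx3cl1 had -0.99 without siSlc39a2 replicate 1, and Cxcl12 had -0.95, -0.99 and -0.99 without siSlc39a2 PE replicate 1, siSlc39a2 PE replicate 2 and siSlc39a2 replicate 3. Cxcl10, Ccl2 and Ccl7 were lower by less, with log2 differences of -0.68, -0.30 and -0.45 (adjusted p = 0.000469, 0.000778 and 0.000636). In all, 7 of 9 members were lower at an adjusted p below 0.05 alone, against 29.3% of all genes. Ccl20 was the single member higher by that measure, at log2 0.66 ± 0.21 SE (adjusted p = 0.014), where 30.7% of all genes were higher. Cxcl1 stood at 19.4, 23.3 and 20.9 CPM, overlapping the 18.9 to 22 CPM of siSlc39a2 (log2 0.07 ± 0.10 SE, adjusted p = 0.57).

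Whether the knockdown effect differed between cells with and without PE was tested by the interaction of both factors, expressed as the effect with PE minus the effect without. Only Cx3cl1 passed the threshold, with a smaller effect under PE (-1.02 ± 0.15 SE, adjusted p = 0.00214), where 0.537% of all genes passed in that direction. At an adjusted p below 0.05 alone, Cxcl1 (-0.94 ± 0.16 SE, adjusted p = 0.00496) and Cxcl11 (-0.99 ± 0.21 SE, adjusted p = 0.0207) were added, against 1.88% of all genes. These 3 genes come from both inducer groups. Cxcl11 and Cx3cl1 fell with PE in knockdown cells, whereas Cxcl1 rose with PE in control cells. The Cx3cl1 value was -0.997 without siNeg PE replicate 1 and -0.89 without siSlc39a2 replicate 1, with adjusted p of 0.00707 and 0.00331. The adjusted p of Cxcl11 was 0.0637 and 0.0574 without siNeg replicates 2 and 3, and 0.0663 and 0.0541 without siSlc39a2 replicates 1 and 2. Leaving out siSlc39a2 replicate 3 put 4 members past the threshold.

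For the remaining tested members, no difference between the effects passed. Ccl5 had the largest estimate of all 9, -1.34 ± 0.41 SE, with an adjusted p of 0.104, which was 0.0354 without siSlc39a2 replicate 3, 0.0223 with DESeq2 and 0.00355 with limma on log2(FPKM + 1). For Ccl2 the estimate was -0.15 ± 0.09 SE, for Ccl7 -0.19 ± 0.15 SE and for Cxcl10 0.30 ± 0.20 SE (adjusted p = 0.445, 0.6 and 0.505). Ccl20 had an estimate of -0.69 ± 0.33 SE and Cxcl12 one of -0.006 ± 0.16 SE (adjusted p = 0.33 and 0.993).

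**Figure D4:**
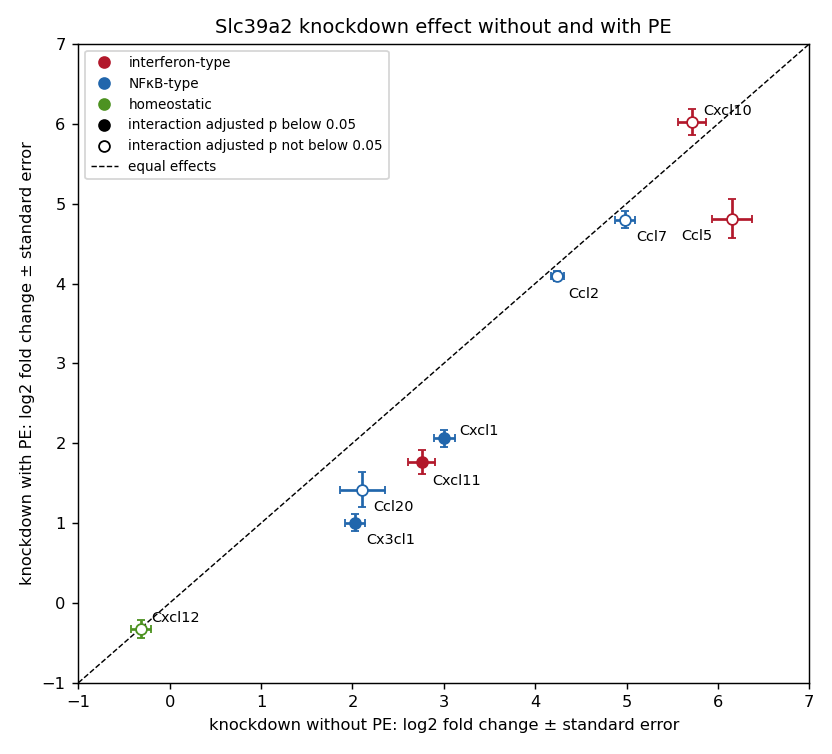
Log2 fold change ± standard error of Slc39a2 knockdown without PE (horizontal axis) and with PE (vertical axis) for the 9 tested chemokine genes, coloured by type; filled points had an interaction adjusted p below 0.05 and the dashed line marks equal effects. Cxcl11, Cxcl1 and Cx3cl1 are filled and lie below the line, while Ccl2, Ccl7 and Cxcl10 lie near it.

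Levels of different genes were compared per length, as FPKM. Summed over the 10 genes, the level in control cells was 97.3 ± 3.03 FPKM without PE and 86.0 ± 3.47 with PE, and in knockdown cells it was 2000 ± 126 and 1330 ± 89.2 (SD, n = 3). The members carried 76.5 to 81.8% of the FPKM of all 32 chemokine genes found in the tables in the 6 samples with siNeg, and 92.5 to 94.3% in the 6 with siSlc39a2. Ccl2 ranked first in each of the 4 groups. In siNeg it was followed by Cx3cl1 (17.6 ± 0.244 FPKM), then by Cxcl10 and Cxcl12, whose ranges overlapped.

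After knockdown the order changed below Ccl2. In siSlc39a2, Cxcl10 (676.5 to 764.59 FPKM) overlapped Ccl2 (757.79 to 824.09 FPKM), and Ccl7 at 244 ± 22 FPKM came next. In siSlc39a2 PE, Cxcl10 at 429 ± 67.0 FPKM stood below Ccl2 at 618 ± 35.5 FPKM without overlap (SD, n = 3). Cxcl10 made up 12.6% of the summed FPKM in siNeg and 35.5% in siSlc39a2, while the share of Ccl2 was 38.8% and 39.4%. Cx3cl1 went from 18.1% to 3.93% of the sum, and Cxcl12 from 12.3% to 0.517%. In siNeg PE, 5 genes from Cxcl10 to Cxcl11 (6.57 to 5.15 FPKM) had ranges that overlapped from each to the next.

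**Figure D5:**
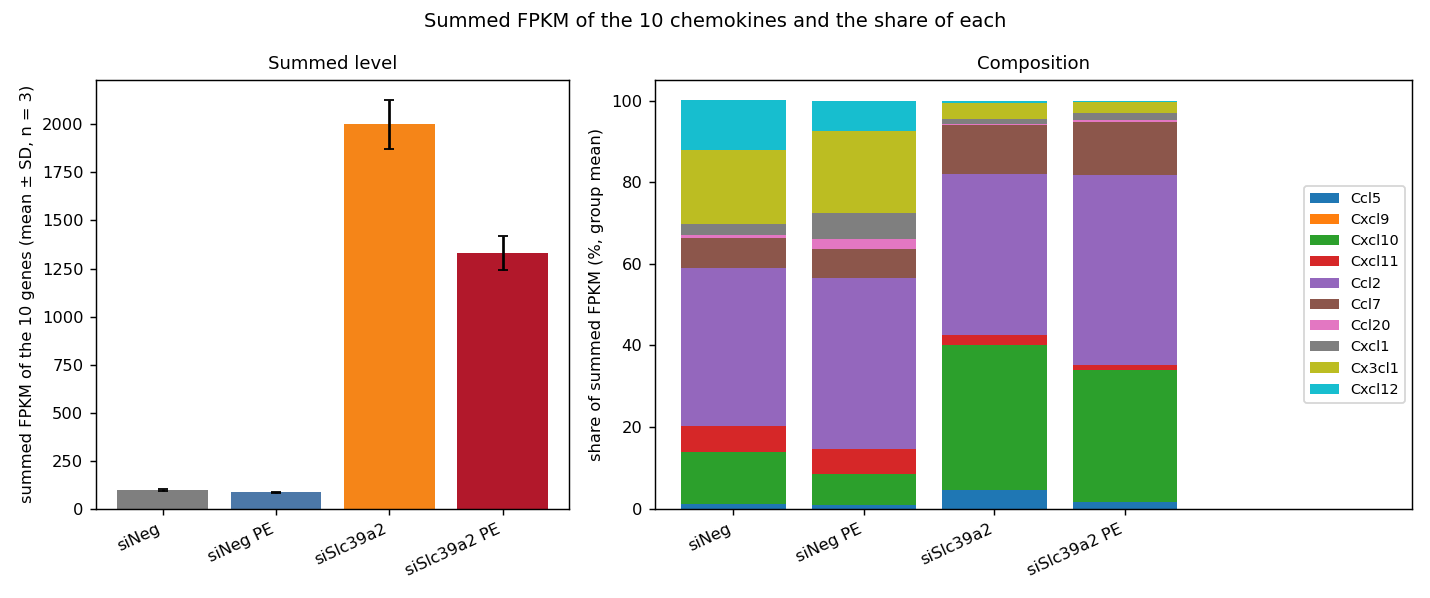
Left, summed FPKM of the 10 chemokine genes in each group (bars are means, error bars SD, n = 3); right, the mean share of each gene in that sum, in percent. The sum is 97.3 FPKM in siNeg and 2000 FPKM in siSlc39a2, and the green share of Cxcl10 grows from 12.6% to 35.5%.

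Of 27 other chemokines looked up, 22 were in the tables and 12 were tested. The same 9 rose past the threshold in both knockdown comparisons, where 4.57% and 6.03% of all genes rose, and none fell. They were Ccl4, Ccl12, Ccl22 and Cxcl17, described here, and 5 more, Ccl9, Cxcl3, Cxcl6, Cxcl13 and Cxcl16, which are named after their values were seen. Ccl9, Ccl12, Ccl22, Cxcl3, Cxcl6, Cxcl13 and Cxcl17 had mean levels of at most 0.236 CPM in both control groups. These genes could pass the filter on low counts only through the knockdown samples. Their rise was thus largely set by being tested, and 9 of 12 cannot be weighed against the share of all genes. The median log2 fold change over the 12 tested genes was 4.54 without PE and 3.22 with PE, or 3.23 and 2.52 when tested genes with at most 3 counts in each control library and more in each knockdown library, 5 and 3 in number, were set to the fold against 3 counts. Ccl4, which draws monocytes and T cells, went from 0.349 ± 0.109 to 30.1 ± 2.14 CPM without PE, or 84.9-fold (SD, n = 3, edgeR adjusted p = 7.72e-12). Ccl12, a CCR2 ligand, had no count in any siNeg sample and 36, 27 and 26 counts in siSlc39a2, at least 9.06-fold higher. Cxcl17, a mucosal chemokine, went from 0.103 ± 0.0778 to 8.09 ± 1.21 CPM (SD, n = 3, edgeR adjusted p = 4.35e-08).

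Ccl22, a CCR4 ligand, had 172, 138 and 90 counts in siSlc39a2 and 1, 0 and 0 in siNeg (edgeR adjusted p = 1.5e-07). With PE it had 6, 7 and 3 counts after knockdown and 2, 0 and 1 in control cells. It thus fell 24-fold with PE in knockdown cells (adjusted p = 1.23e-06), beside 4.01-fold for Ccl5. Its interaction had an adjusted p of 0.0542. PE in control cells moved none of the 12 past the threshold, where 3.8% of all genes rose and 2.8% fell.

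Of 23 chemokine receptors and scavengers, 18 were in the tables and 6 were tested. Receptors of several risen ligands were hardly detected, and they too are named after their values were seen. Cxcr3 had at most 4 counts in a sample, Cxcr2 at most 2, and Cx3cr1 and Ccr6 at most 1. Ccrl2, a chemerin-binding relative of the CC receptors, rose 2.69-fold after knockdown without PE, from 9.23 ± 0.876 to 24.8 ± 2.88 CPM (SD, n = 3, edgeR adjusted p = 3.56e-07). Ccr10 fell 2.08-fold after knockdown with PE (adjusted p = 0.00902), at 12 to 14 counts against 20 to 34.

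The receptors of Cxcl12 passed the threshold with PE and not with knockdown, and they are given here after their values were seen. Cxcr4, the signalling receptor, stood at 8.13, 6.21 and 6.30 CPM in siNeg and at 2.21, 2.18 and 1.80 CPM in siNeg PE, a fall of 3.33-fold (adjusted p = 7.42e-06). In knockdown cells it fell 4.30-fold with PE (adjusted p = 7.65e-07). Ackr3, the scavenging receptor, stood at 5.21, 4.93 and 8.67 CPM in siNeg and at 14.7, 19.1 and 17.2 CPM in siNeg PE, a rise of 2.72-fold (adjusted p = 4.98e-05). After knockdown it rose 2.10-fold with PE (adjusted p = 0.000289). In PE-treated cells it was lower after knockdown, at 11.3 ± 0.491 against 17.0 ± 2.2 CPM (SD, n = 3, log2 -0.59, edgeR adjusted p = 0.00951), short of the fold threshold. In both kinds of cell, lower Cxcl12 and Cxcr4 values with PE stood beside higher Ackr3 values.

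Genes that cleave, present or hold chemokines made up a list of 21, all tested. After knockdown without PE, 1 rose and 5 fell past the threshold, beside 4.57% and 5.21% of all genes, and with PE 4 fell, beside 5.58%. The median log2 difference of the list was -0.55 and -0.40, against -0.016 and 0.01 for all genes. The 5 were Dpp4, Fap, Gpc3, Gpc6 and Hpse, and the gene that rose, Sdc4, is named after its value was seen. Sdc4, a heparan sulfate proteoglycan of the cell surface, rose 2.26-fold without PE, to 65.6 ± 3.93 CPM (SD, n = 3, edgeR adjusted p = 4.52e-08). Dpp4, the peptidase that trims the amino end of Cxcl10, Ccl5 and Cxcl12, fell 5.02-fold, from 1.88 ± 0.627 to 0.373 ± 0.177 CPM (SD, n = 3, edgeR adjusted p = 0.000326). Its relative Fap, a marker of activated fibroblasts, fell 6.24-fold to 1, 6 and 4 counts, and the glypican Gpc3 fell 4.07-fold from 79.3 to 19.5 CPM (adjusted p = 0.000265 and 1.32e-08). Of the 8 fibroblast markers, 4 fell past the threshold in the same comparison (Col1a1, Col1a2, Col3a1 and Postn), while Tcf21 and Pdgfra had log2 differences of 0.34 and 0.12. Their part in these falls was not tested.

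The inducers named in the grouping were looked at in 2 lists. Both were chosen with earlier results of these data known, so their counts describe these samples and are no independent test. Of 21 genes of interferon induction and response, 18 rose past the threshold in each knockdown comparison and none fell, beside 4.57% and 6.03% of all genes that rose and 5.21% and 5.58% that fell. Ifnb1, which encodes interferon beta, had no count in any sample with siNeg and 246, 242 and 189 counts in siSlc39a2, at least 68.7-fold higher. Ifnb1 could thus pass the filter on low counts only through the knockdown samples. With PE it had 46, 34 and 39 counts after knockdown, a fall of 5.59-fold from siSlc39a2 (adjusted p = 1.15e-05). Of 24 NFκB pathway and feedback genes, 23 were tested, and 9 rose without PE and 7 with PE, with none falling, beside the same shares of all genes. Tnf and Il6, the latter named after its values were seen, had mean levels of at most 0.216 CPM in both control groups. They too could pass the filter only through the knockdown samples, so the 9 and 7 cannot be weighed against those shares. Vcam1, an adhesion molecule for monocytes and lymphocytes, rose 12.4-fold without PE and 7.92-fold with PE (adjusted p = 8.84e-10 and 5.62e-09), on counts that were not whole. Tnf passed without PE (adjusted p = 0.00765) on counts of 462.24, 0.04 and 328.16, which were not whole and overlapped the controls, so its value is uncertain. The interferon-type and NFκB-type chemokines thus rose in samples in which genes of both lists rose.

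Macrophage markers did not rise beside the chemokines. None of the 8 tested was higher past the threshold in either knockdown comparison, where 4.57% and 6.03% of all genes rose. With so few markers, none called higher is near those shares. Without PE, 2 markers (Mrc1 and Lyz2) were lower, where 5.21% of all genes fell. The summed level of the macrophage markers was 50.2 CPM in siSlc39a2 against 100 CPM in siNeg, and 35.1 CPM in siSlc39a2 PE against 48.6 CPM in siNeg PE. The fibroblast marker sums given above were lower after knockdown and lower with PE, as were the levels of Cxcl12, a gene that stromal cells make. Single markers differed from the sums, which abundant collagens carry. With PE in control cells, 2 of 8 markers were higher at an adjusted p below 0.05 (Dcn, log2 0.44, and Pdgfra, log2 0.74) and 4 were lower. Over all genes, 24% were higher and 25.7% lower by that measure, so the share of markers that rose was near that of all genes. After knockdown without PE, Tcf21 was higher (log2 0.34, adjusted p = 0.00236) and 6 of 8 were lower by that measure, beside 22.8% and 26.4% of all genes. The part of fibroblasts in the Cxcl12 levels was not tested.

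The profiles of Cxcl10, Ccl2 and Cxcl12 over the 12 samples were set against those of 7990 genes by Pearson's r of log2 CPM. These values describe 12 samples in 4 groups and carry no test. The closest to Cxcl10 were Trim25, Ly6e, Cmpk2 and Tent4a (r = 0.9979 to 0.9958). Among the closest to Ccl2 were Ccl7, Isg15 and Dhx58 (r = 0.9992 to 0.9985). Ccl7 is the other CCR2 ligand of the set, and Isg15 and Dhx58 are known for their response to interferon. The closest to Cxcl12 were Tmem116, Smoc2, Zfp362 and Acad9 (r = 0.9694 to 0.9654), and the first 2 of these had log2 differences of -1.40 and -2.33 with PE in control cells.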

How the data were processed

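RNA was extracted from 12 NRVM samples in 4 groups of 3 and sequenced at BGI. The submitters' notes name HISAT, Bowtie2 and the build Rnor_6.0, with no versions. The authors deposited expected counts per gene, which are not normalized, and FPKM values of the same 18483 genes. Reads that map to several genes can be split between them, and 70% of genes had whole counts in every sample.

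Expected counts were rounded and tested with edgeR 4.0.16 (limma 3.58.1, R 4.3.3): TMM scaling, filterByExpr with a minimum count of 10, a quasi-likelihood fit of the 4 groups with 8 residual degrees of freedom, and Benjamini-Hochberg adjustment over the 13967 genes kept. A gene was called past the threshold when its log2 fold change exceeded 1 in either direction and its adjusted p lay below 0.05. CPM values scale the counts to a sample's total times its TMM factor. The study's methods name limma, which was run as an alternative, as was DESeq2 1.42.0. The tests were checked on simulated counts. Total counts limit the precision of genes with few counts, such as Cxcl9, Ccl20 and Ccl5 in control cells.

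The members and gene lists were chosen with earlier results of these data known, so the counts of them past the threshold are descriptive. From each further list, genes past the threshold in a knockdown comparison were named, at most the 4 with the largest absolute change without PE; for likeness, the 4 highest correlations were named among genes with whole counts and a mean log2 CPM above 1. Exceptions are named as such. One result of the likeness rule is not reported here. The paper calls the 3 replicates of each group biological and independent. The labels number them and do not say that they came from separate cell isolations. The p-values thus measure the spread between these samples, which may be partly technical. No 2 replicates agreed within sampling noise. Promoter letters came from RefSeq, build GRCr8, not from Rnor_6.0. The labels give 36 h of PE, and the methods of the paper another duration.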

Additional observations from a re-analysis of the deposited data

Results flagged for a closer look

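For 3 genes the effect of Slc39a2 knockdown differed between cells with and without PE by the interaction test (edgeR adjusted p below 0.05 over all genes). The effect with PE minus that without PE was -0.992 on the log2 scale for Cxcl11, -0.942 for Cxcl1 and -1.024 for Cx3cl1, so the effect was smaller with PE in each. For Cxcl1 and Cx3cl1 the adjusted p stayed below 0.05 in every alternative run, at 0.0196 and 0.00958 at most. For Cxcl11 it reached 0.0944 with limma on log2(count + 1) and lay above 0.05 without any 1 of 4 libraries named with the interaction result.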

How the results depend on the processing

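After knockdown without PE, the same 8 members rose under every alternative run, and Cxcl9 was added without the filter on low counts. No change past the threshold reversed its sign in any comparison. Values near 0 could do so, as for Cxcl1 with PE after knockdown (log2 0.068, and -0.007 at the lowest alternative). With an adjusted p alone, 1 member was lower in each knockdown comparison (Cxcl12), 2 were lower with PE in control cells, and 1 was higher and 7 were lower with PE after knockdown. Most changes of call came from values next to a log2 fold change of 1. For PE in control cells, the members called higher numbered 0 with limma on log2(FPKM + 1) and 1 with limma on log2(FPKM + 0.1) or log2(count + 1), and the members called lower 1 and 2 with the last 2 fits. Leaving out 1 library gave 1 to 2 higher and 0 to 2 lower. For the interaction, 1 member was lower, against 3 with DESeq2, 2 with RLE size factors, 2 without a filter on low counts, 2 with limma on log2(FPKM + 1), 3 by adjusted p alone, and 0 to 4 with 1 library left out. The cause of these shifts was not tested.

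By the rule used (r above 0.1 in each of 3 pairs), same-numbered samples did not deviate together in any comparison. Their r ran from -0.0904 to 0.32. Replicates 1 and 3 passed that limit for PE in control cells (0.315 and 0.206), and replicate 2 did not (0.0535). Differently numbered pairs there ran from -0.249 to 0.0892. Knockdown under PE gave 0.32, 0.00387 and 0.122 for replicates 1, 2 and 3, beside -0.226 to 0.118. For PE after knockdown, the highest r (0.236) came from a differently numbered pair. The cause of the higher values was not tested. A replicate block gave 2 members lower in the interaction, and in the other comparisons the same counts of members as without it. With the block, the interaction of Ccl5 had an adjusted p of 0.0478.

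Over all genes, limma on log2(FPKM + 1), which shrinks changes of low genes, called 328 higher and 282 lower after knockdown against 638 and 728, and with PE 362 and 312 against 842 and 779. For PE it called 163 and 124 in control cells against 531 and 391, and after knockdown 308 and 275 against 886 and 583, where log2(FPKM + 0.1) called 587 higher. The interaction called 63 higher and 75 lower, against 37 and 48 with that fit, and 39 and 40 higher without siNeg PE replicate 1 and siSlc39a2 replicate 1. Without the filter on low counts, Cxcl9 entered the edgeR test and was higher after knockdown (adjusted p = 0.000335) and with PE (0.00334). It had no count in any sample with siNeg and could enter only through the knockdown samples, so its direction was set by being tested. Limma on log2(FPKM + 1) gave Ccl5 log2 fold changes of 5.24 and 3.72 after knockdown without and with PE, and Ccl20 one of 1.29 without PE. Cx3cl1 shares reads.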
